A study of Mus musculus with 4 samples.

Results

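The Hox genes of the HoxA, HoxB, HoxC and HoxD clusters were followed in mouse embryoid bodies at day 9, in cells that had come from control embryonic stem cells or from stem cells pulsed with DUX. Members were all rows of the deposited count table named Hox, a cluster letter from a to d and a number from 1 to 13, without antisense or opposite-strand names. The rule found 39 of the 20284 genes in the table: 11 in HoxA, 10 in HoxB, 9 in HoxC and 9 in HoxD. By paralog number, 12 were anterior (1 to 4), 11 central (5 to 8) and 16 posterior (9 to 13). Hoxd4 stood in the table under a name made unique for a repeated symbol. Embryoid bodies are aggregates of differentiating stem cells, and DUX is a transcription factor of the early mouse embryo. Single cells were profiled with 10x Genomics droplet libraries, which count each captured RNA molecule through a unique molecular identifier (UMI). There were 2 control and 2 DUX-pulsed libraries, described as biological replicates in the series design. The labels give the material as an organoid of cultured embryonic stem cells and the DUX-pulsed state as the agent. They name no stem cell line, sex, transgene, inducer or length of the pulse, and the level of Dux was not analysed here.

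Hox genes encode homeodomain transcription factors that give cells of the embryo their address along the head-to-tail axis and, in the limb and urogenital tract, along further axes. The genes of a cluster lie in the order in which they are used: low-numbered paralogs act early and toward the head, and high-numbered paralogs act later and toward the tail and the limb tip. PBX and MEIS proteins bind DNA together with them, CDX proteins and retinoic acid turn many of them on, and Polycomb and Trithorax complexes hold them silent or active. In the GRCm38 (mm10) sequence, the members spanned chr6:52155590-52260880 (HoxA), chr11:96194316-96368256 (HoxB), chr15:102921103-103036852 (HoxC) and chr2:74668310-74765142 (HoxD) by GENCODE gene models. Some of these models overlap: Hoxa3 with Hoxa4, Hoxa5 and Hoxa6, Hoxc5 with Hoxc6, Hoxc8, Hoxc9 and Hoxc10, and Hoxd3 with Hoxd4. Counts of overlapping genes cannot be separated further here, and whether the counting used strand is not given in the sources used here.

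RefSeq promoters (GRCm38.p6, from 250 bases before to 50 after a start site) were at hand for 22 of the 39 members, with 24 promoters in all. Below stand the promoters of Hoxb8, which held the most of the searched motifs, of Hoxd11, of Hoxb4, a gene that rose in DUX-pulsed cultures, and of Hoxc4, which also rose and is the HoxC member with a promoter in that table. All are on the plus strand, and capitals mark a match to the PBX-HOX motif TGATNNAT on either strand.
Hoxb8, chr11:96281655-96281954: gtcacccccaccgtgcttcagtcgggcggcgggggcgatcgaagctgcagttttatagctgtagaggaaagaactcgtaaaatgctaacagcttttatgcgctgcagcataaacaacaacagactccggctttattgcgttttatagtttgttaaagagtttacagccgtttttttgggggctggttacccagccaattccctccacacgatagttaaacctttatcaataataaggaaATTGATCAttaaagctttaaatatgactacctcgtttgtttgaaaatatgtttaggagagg
Hoxd11, chr2:74682073-74682372: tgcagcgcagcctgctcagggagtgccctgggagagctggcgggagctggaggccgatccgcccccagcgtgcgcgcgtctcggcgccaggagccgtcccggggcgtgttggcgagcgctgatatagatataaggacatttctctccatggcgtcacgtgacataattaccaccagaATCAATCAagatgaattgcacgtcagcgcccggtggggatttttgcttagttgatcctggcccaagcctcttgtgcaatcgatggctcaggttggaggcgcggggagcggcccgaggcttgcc
Hoxb4, chr11:96318017-96318316: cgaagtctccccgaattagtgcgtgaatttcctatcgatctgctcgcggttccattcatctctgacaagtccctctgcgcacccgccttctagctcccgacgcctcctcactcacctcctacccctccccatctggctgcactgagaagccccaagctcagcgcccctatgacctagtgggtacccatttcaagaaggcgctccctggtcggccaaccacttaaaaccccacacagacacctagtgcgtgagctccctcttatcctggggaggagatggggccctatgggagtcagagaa
Hoxc4, chr15:103034145-103034444: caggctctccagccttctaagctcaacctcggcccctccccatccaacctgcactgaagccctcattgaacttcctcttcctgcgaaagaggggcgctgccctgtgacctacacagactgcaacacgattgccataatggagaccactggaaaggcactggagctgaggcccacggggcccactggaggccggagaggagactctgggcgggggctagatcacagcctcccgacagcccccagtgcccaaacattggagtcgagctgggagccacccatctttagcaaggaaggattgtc
The PBX-HOX motif was found in 4 of the 24 Hox promoters (16.7%; Hoxa2, Hoxb1, Hoxb8 and Hoxd11), against 8.85% of 32851 mouse promoters of the same length. The CDX motif TTTATNG was found in 2 (8.33%; Hoxb8 and Hoxd4) against 10.9% of all promoters. The letters TATAAA, searched on both strands like the others, were found in 4 (16.7%; Hoxa10, Hoxb8, Hoxd4 and Hoxd13) against 13.6%, and the start of the CDX motif can overlap them. Hox promoters held a median of 14.5 CpG dinucleotides, and all promoters a median of 7.

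After removal of cells with under 500 detected genes or over 10% mitochondrial counts, 8876 of 10090 cells stayed, with 2824 and 2636 in control replicates 1 and 2 and 2063 and 1353 in DUX-pulsed replicates 1 and 2. Total UMIs per library ran from 36462169 to 96344329 and median UMIs per cell from 27260 to 30402.5. Median mitochondrial shares were 6.22% and 6.42% in control and 4.01% and 4.54% in DUX-pulsed replicates 1 and 2. Pairs of libraries shared 0 to 2 cell barcodes. Of all UMIs, 11184 fell on Hox genes, so counts of single members were low.

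The comparison of whole cultures asked how much Hox RNA the 2 kinds of embryoid body held. Hox genes of HoxB, HoxC and HoxD were higher in DUX-pulsed cultures, and no HoxA member passed the test. UMIs were summed over the kept cells of each library and tested with edgeR's quasi-likelihood test over all genes, with Benjamini-Hochberg adjusted p under 0.05 as the threshold. Of 29 members with enough counts, 13 rose and 0 fell, where 15.6% of all 16140 genes tested were called higher and 11.1% lower. At an unadjusted p under 0.05 the numbers were 17 higher and 0 lower, where 6502 of the 16140 genes tested had such a p in either direction. DESeq2 called 11 higher and 0 lower, and its share over all genes is not given here. The members' median log2 fold change was 1.46 (from -0.51 for Hoxd13 to 3.21 for Hoxc8), beside -0.0021 over all genes tested. Both DUX-pulsed libraries lay above both controls for 21 of the 29, against 33.6% of all genes tested. By cluster, 0 of 8 HoxA members rose (1 at an unadjusted p under 0.05), 4 of 7 HoxB, 6 of 8 HoxC and 3 of 6 HoxD. The median log2 fold changes were 0.63, 1.78, 2.33 and 1.38 in the same order. By position along the axis, 4 of 7 anterior, 4 of 9 central and 5 of 13 posterior members rose, with medians of 1.76, 1.80 and 1.13. In sums over a culture, more cells of a type and more RNA per cell cannot be told apart.

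**Figure D1:**
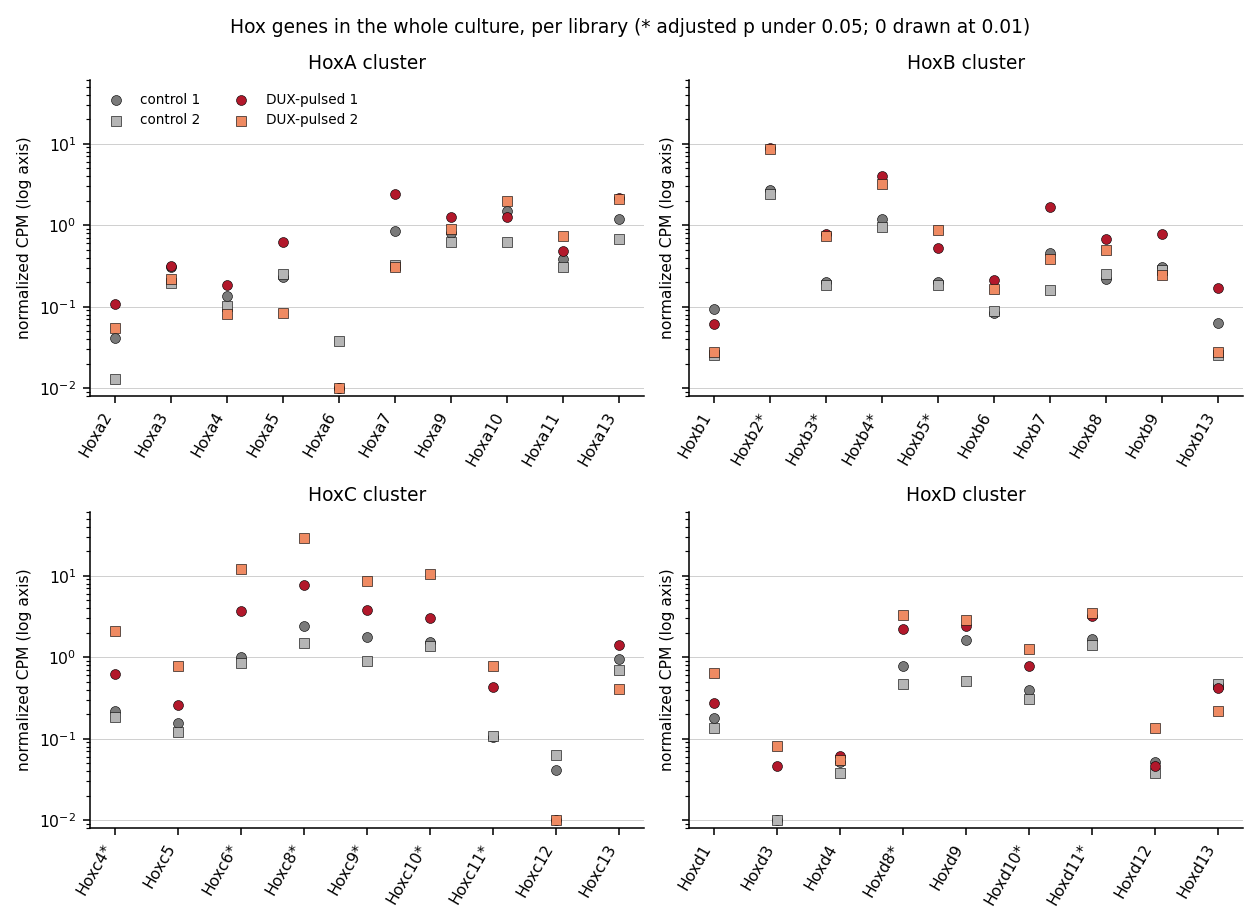
TMM-normalized CPM of Hox genes in whole cultures, on a log axis with 0 drawn at the bottom, 1 panel per cluster and a point for each control and DUX-pulsed library. Stars mark genes with an adjusted p under 0.05. From Hoxc4 to Hoxc11, DUX-pulsed replicate 2 is the highest library, and no HoxA gene carries a star.

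In the HoxB cluster, anterior and central genes rose. Hoxb2 (chr11:96350525-96354012), which patterns the hindbrain and neural crest, stood at 2.69 and 2.42 CPM in control replicates 1 and 2 and at 8.81 and 8.69 CPM in DUX-pulsed replicates 1 and 2. The groups did not overlap, and the replicates of each lay close together. Its log2 fold change was 1.78 (SE 0.20, adjusted p = 0.00360), and it was still called with each of the 4 libraries left out in turn. Hoxb4 (chr11:96318267-96321638), known for expanding blood stem cells, stood at 1.18 and 0.948 CPM against 3.99 and 3.19 CPM (log2 fold change 1.76, SE 0.28, adjusted p = 0.00839). It behaved in the same way between libraries as Hoxb2, with no overlap. Hoxb3 went from 0.199 and 0.182 to 0.782 and 0.743 CPM (1.99, SE 0.36, adjusted p = 0.0121). Hoxb5, a marker of long-term blood stem cells, went from 0.199 and 0.182 to 0.527 and 0.880 CPM (1.85, SE 0.43, adjusted p = 0.0263), and DESeq2 did not call it (adjusted p = 0.0535). Hoxb7, Hoxb8 and Hoxb9 did not pass. Of these, Hoxb8 was nearest, at 0.220 and 0.255 against 0.686 and 0.495 CPM (1.33, SE 0.39, adjusted p = 0.0520), with no overlap between the groups.

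The HoxC cluster held the largest differences of the 29 tested members, and DUX-pulsed replicate 2 stood above replicate 1 in each HoxC gene that rose. Hoxc8 (chr15:102990607-102994111), a gene of the thoracic region and of the forelimb's motor neurons, stood at 2.42 and 1.5 CPM in the controls and at 7.65 and 28.8 CPM in the DUX-pulsed libraries. Both DUX-pulsed values exceeded both controls, though they lay far apart from each other. The log2 fold change was 3.21 (SE 0.65, adjusted p = 0.0167). Hoxc6 (chr15:102998257-103011881), which marks the forelimb level of the trunk, went from 1.02 and 0.839 to 3.74 and 12.1 CPM (3.08, SE 0.57, adjusted p = 0.0130). Hoxc4 went from 0.220 and 0.182 to 0.623 and 2.09 CPM (2.71, SE 0.64, adjusted p = 0.0280). The lumbar-level and hindlimb gene Hoxc10 went from 1.55 and 1.36 to 3.0 and 10.5 CPM (2.19, SE 0.58, adjusted p = 0.0376). All of these shared the order of the libraries seen for Hoxc8. Hoxc9, a gene of thoracic identity, stood 2.21 higher on the log2 scale (SE 0.51, adjusted p = 0.0254), and Hoxc11, a hindlimb-level gene, 2.44 higher (SE 0.48, adjusted p = 0.0155). Hoxc5 missed the threshold (1.80, SE 0.63, adjusted p = 0.0846), and so did Hoxc13, a gene of hair and nail, at 0.944 and 0.705 against 1.40 and 0.413 CPM (0.18, SE 0.56, adjusted p = 0.843).

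In the HoxD cluster, Hoxd8 (chr2:74704615-74707933), a central gene, went from 0.787 and 0.474 CPM in the controls to 2.2 and 3.30 CPM in the DUX-pulsed libraries (log2 fold change 2.11, SE 0.39, adjusted p = 0.0123). Hoxd11 (chr2:74679557-74687016), which patterns the forearm and the kidney together with Hoxa11, stood at 1.66 and 1.41 against 3.19 and 3.52 CPM (1.13, SE 0.25, adjusted p = 0.0234). Hoxd10, a gene of the lumbar level, went from 0.399 and 0.304 to 0.782 and 1.27 CPM (1.52, SE 0.40, adjusted p = 0.0395), and DESeq2 did not call it (adjusted p = 0.0597). For each of these 3, both DUX-pulsed libraries lay above both controls. Hoxd1 and Hoxd9 did not pass (adjusted p = 0.10 and 0.128). Hoxd13, the digit gene at the end of the cluster, stood at 0.462 and 0.474 against 0.415 and 0.220 CPM (-0.51, SE 0.43, adjusted p = 0.419).

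In the HoxA cluster, 0 of the 8 tested members passed in either direction, with DESeq2 as with edgeR. Hoxa13 (chr6:52257694-52260880), needed for digits, hindgut and umbilical vessels, came nearest, at 1.20 and 0.681 CPM in the controls and 2.16 and 2.09 CPM in the DUX-pulsed libraries (log2 fold change 1.17, SE 0.36, adjusted p = 0.0577). Its groups did not overlap, and it was called without control replicate 1 (1.65, adjusted p = 0.0475). Hoxa10, a gene of the uterus, hindlimb and blood progenitors, stood at 1.48 and 0.620 against 1.25 and 1.95 CPM (0.59, SE 0.49, adjusted p = 0.412). Hoxa9, best known in blood stem cells, stood at 0.808 and 0.620 against 1.26 and 0.908 CPM (0.61, SE 0.35, adjusted p = 0.239). Hoxa7 depended on a single library, with 0.850 and 0.328 CPM in the controls and 2.44 and 0.303 CPM in the DUX-pulsed replicates (1.25, SE 0.90, adjusted p = 0.345). Of its 153 UMIs in DUX-pulsed replicate 1, 77 lay in cells of the parietal endoderm-like class. Without that library its log2 fold change was -0.95 (adjusted p = 0.311), and without DUX-pulsed replicate 2 it was 2.05 (adjusted p = 0.0135).

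Too few counts for the test were found for 10 members: Hoxa2, Hoxa4, Hoxa6, Hoxb1, Hoxb6, Hoxb13, Hoxc12, Hoxd3, Hoxd4 and Hoxd12. They held between 3 UMIs (Hoxa6) and 36 UMIs (Hoxa4) over the 4 libraries. Hoxc12 had 4 and 5 UMIs in the controls and 0 in both DUX-pulsed libraries, and Hoxd3 had 0 in both controls and 3 in each DUX-pulsed library. No difference could be detected for these genes at this depth.

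The count of 13 members that rose depended on control replicate 2 more than on any other library. Without it 5 were called (Hoxb2, Hoxb4, Hoxc6, Hoxc8 and Hoxd8), without control replicate 1 there were 10, and without either DUX-pulsed library 15. It also depended on the choice of cells: with a stricter choice (1000 genes or more and 5% mitochondrial counts or less) 4 of 22 tested members rose. The share of all genes that rose with that choice is not given here. Of the 13, Hoxb4, Hoxd8 and Hoxd11 were called there, while Hoxb2 missed the threshold with a log2 fold change of 0.80 (adjusted p = 0.0555).

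Summed levels in plain CPM were also higher in DUX-pulsed cultures. HoxC genes together stood at 8.15 and 6.06 CPM in control replicates 1 and 2 and at 20.1 and 63.9 CPM in DUX-pulsed replicates 1 and 2. HoxB genes together stood at 5.42 and 4.80 against 17.1 and 14.8 CPM. HoxD genes stood at 5.16 and 3.56 against 9.10 and 12.0 CPM, and HoxA genes at 6.61 and 4.43 against 10.0 and 8.26 CPM. In each of the 4 clusters both DUX-pulsed libraries exceeded both controls. The ratio of the group means was 5.91 for HoxC, 3.12 for HoxB, 2.42 for HoxD and 1.66 for HoxA, and 3.51 for all members. DUX-pulsed replicate 2 set the place of HoxC: without it the ratio was 2.83 for HoxC and 3.34 for HoxB, and without DUX-pulsed replicate 1 it was 8.99 and 2.90. By paralog number, summed over clusters, the ratio was 7.64 for paralogs 6 and 7.44 for paralogs 8, which came to 3.63 and 3.54 without DUX-pulsed replicate 2. It was 2.59 for paralogs 7, with 4.41 without DUX-pulsed replicate 2 and 0.762 without DUX-pulsed replicate 1. Paralogs 4 were steadier, at 3.48 and between 3.22 and 3.79 with a library left out.

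The cell classes that hold Hox RNA took different shares of the cultures. Mesenchyme-like cells held 2.31% of the UMIs in the controls and 15.6% in the DUX-pulsed libraries (means over libraries), an unnamed mesenchyme-related cluster (cluster 12) 3.23% and 9.01%, and cardiomyocyte-like cells 2.92% and 17.9%. Of the 18 mesenchyme and fibroblast markers in the whole-culture test, 13 rose and 0 fell, none was at 0 in any library, and their summed level was 357 to 388 CPM in the controls and 1288 to 3191 CPM in the DUX-pulsed libraries. Endothelium-like cells held 0.865% and 2.95% and parietal endoderm-like cells 1.17% and 11.9%. The marker sums of these 2 classes did not follow their shares. Of 16 endothelium markers 8 rose and 2 fell, but their summed level was 824 and 801 CPM in the controls against 583 and 485 CPM. Of 15 parietal endoderm markers 2 rose and 1 fell, with sums of 3632 and 3668 CPM against 4818 and 2892 CPM. The parietal endoderm-like mean of the DUX-pulsed libraries rested on replicate 1, where these were 11.8% of the kept cells. They were 1.77% in DUX-pulsed replicate 2, near the 1.59% of control replicate 1, and control replicate 2 had 5 such cells. The summed levels were then recomputed with 6 classes weighted by their mean share in the controls, each at its own level in each library, and all other cells taken as 1 pool. The ratio of all members was then 1.45 in place of 3.51, and that of HoxB 2.34, HoxC 1.31, HoxD 1.07 and HoxA 1.07. The pool of other cells still held the endothelium-like and parietal endoderm-like cells in each library's own mix. When these 2 classes were weighted as well, an alternative added after seeing the data, no cluster was left higher in the DUX-pulsed libraries. HoxB then stood at 4.60 and 6.38 CPM in the controls against 4.95 and 4.70 CPM (ratio 0.878), and HoxC at 6.86 and 7.83 against 4.54 and 9.47 CPM (ratio 0.954), both with overlap between the groups. The ratio was 0.551 for HoxD, 0.465 for HoxA and 0.738 for all members. By position it was 0.816 for anterior, 1.05 for central and 0.528 for posterior genes. In control replicate 2 the 2 added classes had 12 and 5 cells, and the remaining pool still held 86.4% of the control and 24.7% of the DUX-pulsed UMIs with a mix of its own. These are descriptions without a test.

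**Figure D2:**
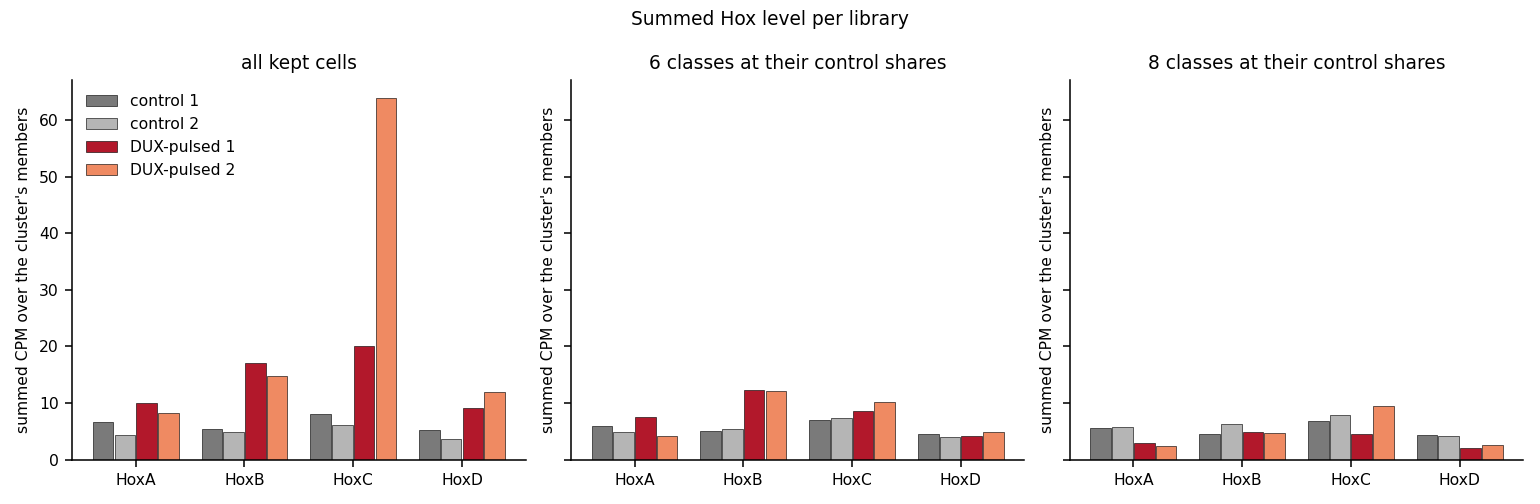
Summed CPM of the members of each Hox cluster, with a bar for each library, over all kept cells, with 6 classes at their mean control share, and with 8 classes at their mean control share. The HoxB bars of the DUX-pulsed libraries stand above the controls in the first and second panels and at about their height in the third.

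A fit of the whole cultures without the mesenchyme-like cells, added after seeing the data, called 8 of 24 members, all higher: Hoxb2, Hoxb3, Hoxb4, Hoxb5, Hoxb8, Hoxc6, Hoxc8 and Hoxd8. Hoxd11 turned to -1.21 on the log2 scale in that fit (adjusted p = 0.189). Without cluster 12 as well, 6 of 23 were called, again all higher: Hoxb2, Hoxb4, Hoxb5, Hoxb8, Hoxc6 and Hoxd8. Hoxb2 then had a log2 fold change of 2.37. Both sets were mostly HoxB genes, and no HoxA gene was in either. The share of all genes called higher in these 2 fits is not given here, so the counts cannot be set against it. The endothelium-like and parietal endoderm-like cells, whose mean shares also differed, stayed in both fits.

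Hox RNA was concentrated in few cells. The mesenchyme-like class made up 6.38% of the kept cells and held 59.4% of the Hox UMIs. Cluster 12, led by Lhx2, Rgs5 and Hand2, held 9.64%, the foregut-like class 9.47%, parietal endoderm-like cells 6.04% and endothelium-like cells 4.84%. Cardiomyocyte-like cells were 10.2% of the cells and held 1.54% of the Hox UMIs. In the 140 erythroid-like cells 2 Hox UMIs were found, and 4 in the 64 hepatoblast-like cells.

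Summed over all members, mesenchyme-like cells stood at 433 and 414 CPM in control replicates 1 and 2 and at 265 and 406 CPM in DUX-pulsed replicates 1 and 2. Foregut-like cells had 143, 239, 152 and 100 CPM in the same order. Cluster 12 was even in this sum, at 74.8, 74.4, 70.2 and 68.7 CPM, but not by Hox cluster. In the same order its HoxB sum was 55.3, 67.8, 50.5 and 38.3 CPM and its HoxC sum 10.2, 2.22, 12.1 and 17.7 CPM. HoxD had 2.33, 0.443, 3.14 and 10.0 CPM, and HoxA, where the groups overlapped, 6.99, 3.99, 4.40 and 2.67 CPM. No test of these sums was made. Endothelium-like cells, with at least 20 cells in 3 libraries, had 116 CPM in control replicate 1 and 87.3 and 155 CPM in the DUX-pulsed libraries. Parietal endoderm-like cells, in the same 3 libraries, had 42.3, 39.0 and 38.5 CPM. Cardiomyocyte-like cells were lowest of these classes, at 6.17, 10.5, 5.70 and 9.96 CPM. By mean and SD over libraries the order was mesenchyme-like (379 ± 77.1), foregut-like (158 ± 58.0), endothelium-like (119 ± 33.7), cluster 12 (72.0 ± 3.06), parietal endoderm-like (39.9 ± 2.09) and cardiomyocyte-like (8.08 ± 2.49). The foregut-like and endothelium-like values overlapped, and those of the other neighbours in that order did not. Hox genes were among those used to form the classes, so this order is a description. In a clustering without them, 98.6% of cluster 12 joined a mesenchyme-like cluster. The place of the foregut-like class rested on 28 of its 197 cells, which held 88.3% of its Hox UMIs, and the other 169 cells stood at a pooled 22.8 CPM, below cluster 12 and the parietal endoderm-like cells.

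**Figure D3:**
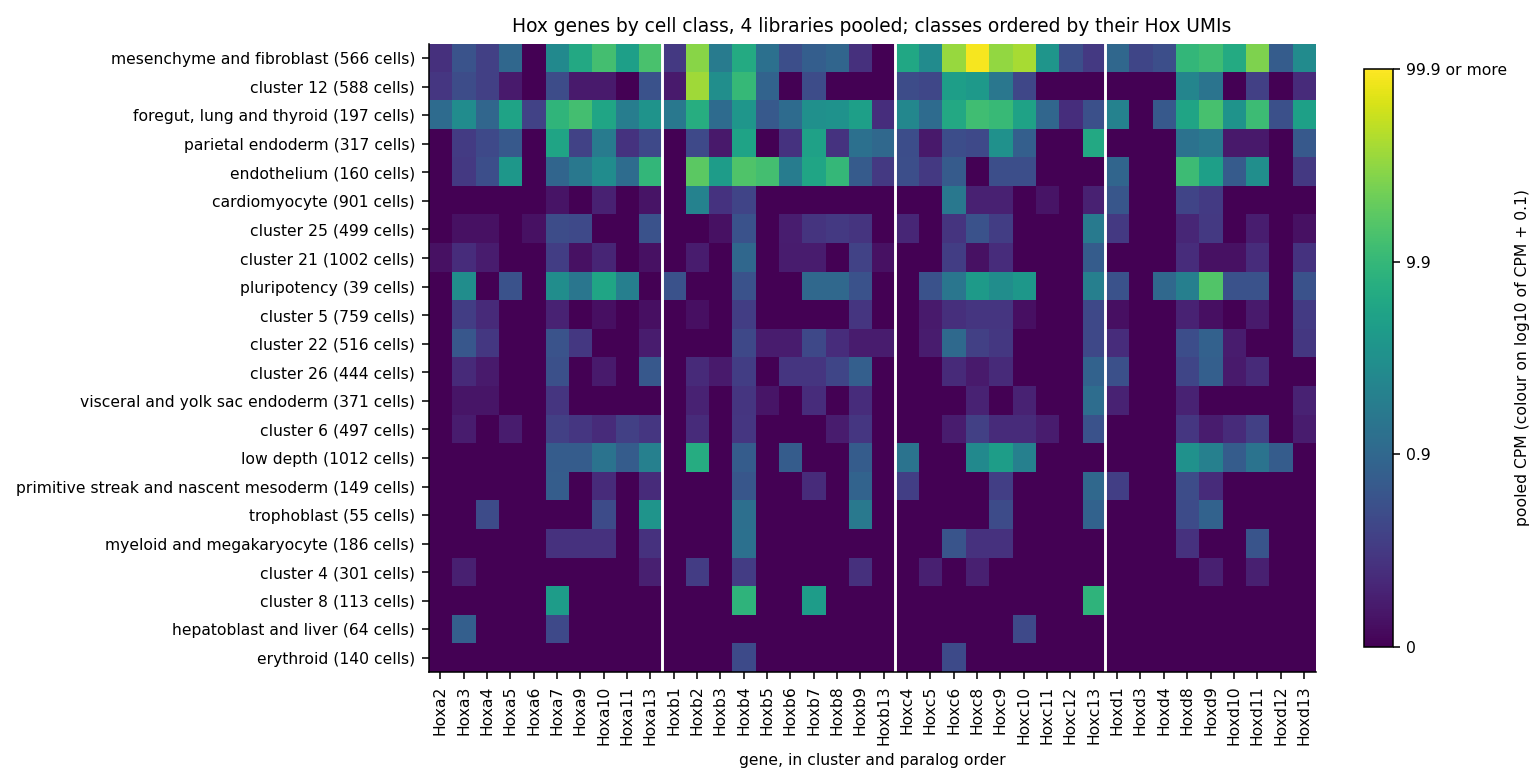
CPM of Hox genes (columns) in each cell class (rows), 4 libraries pooled, with colour on a log scale. The mesenchyme-like row is bright in all 4 clusters, cluster 12 mainly at Hoxb2 and Hoxb4, and the cardiomyocyte-like row is dark.

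The share of cells with any Hox UMI followed the same pattern after each cell had been thinned to 5000 UMIs. Over all cells it was 7.22% and 5.31% in control cells against 14.8% and 22.1% in DUX-pulsed cells, and without thinning the group means were 17.1% and 32.7%. In mesenchyme-like cells it was 79.1% and 67.4% against 57.9% and 70.6%. In cluster 12 it was 24.8% and 26.1% against 20.8% and 27.6%. Within these classes, unlike over all cells, the groups overlapped. Cardiomyocyte-like cells had 3.64% and 7.14% against 2.63% and 7.03%. As a measure of stray RNA, 1 of 117 erythroid-like cells had a Hox UMI (0.855%, exact 95% interval 0.022% to 4.67%). Before thinning, these had a median of 19380 UMIs and mesenchyme-like cells 32110. The interval covers counting error only.

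The classes differed in how much of each Hox gene's RNA they held. Levels are given within a gene, since UMI counts are not scaled for how well each transcript is captured. Mesenchyme-like cells held 89.5% of all Hoxc8 UMIs, 91.3% of Hoxc10, 80.6% of Hoxd11, 76.4% of Hoxc6 and 67.2% of Hoxa13. Hoxb2 was shared between cluster 12 (42.7% of its UMIs, 38.7 ± 12.1 CPM over the 4 libraries) and the mesenchyme-like class (41.7%, 31.6 ± 12.4 CPM). These Hoxb2 levels overlapped between the classes. Endothelium-like cells held 59.6% of the Hoxb5 UMIs and 44.7% of the Hoxb8 UMIs, and Hoxc8 was at 0 in them. Parietal endoderm-like cells held 43.0% of the Hoxc13 UMIs, 49.1% of Hoxb7 and 34.2% of Hoxa7. In cardiomyocyte-like cells Hoxb2 was at 1.71 and 4.56 CPM in the controls and at 1.87 and 1.70 CPM in the DUX-pulsed libraries. Single cells differed in how far along the clusters their code reached. The highest paralog number with a UMI had a median of 2 in cardiomyocyte-like cells with any Hox UMI, 4 in cluster 12, 8 in endothelium-like cells and 9 in parietal endoderm-like cells. These cells were not thinned, and median UMIs per cell of the classes were 23670, 23970, 26930 and 51120 in that order. The median number of Hox genes over all their cells was 0, 1, 2 and 1, so few UMIs set this measure. Cluster 25, where 19.8% of cells held a Hox UMI, had a median of 11.

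The mesenchyme-like class was made of clusters 0 and 10, which differed in their Hox genes. The Hox genes were among those used for clustering (11 of the 2000 variable genes), so these values are a description. Cluster 0, led by Ptn, Cthrc1 and the hindlimb genes Pitx1 and Tbx4, had 258 cells. Of these, 97.7% held a Hox UMI, with a median of 5 and up to 18 Hox genes per cell, and the highest paralog had a median of 11. Cluster 10, led by Lum, Dcn, Postn and the mesothelial genes Upk3b and Upk1b, had 308 cells. Of these, 90.6% held a Hox UMI, with a median of 2 and up to 10 Hox genes, and the highest paralog had a median of 8. A paralog of 9 or above was the highest in 92.9% of the Hox-holding cells of cluster 0 and in 28.3% of those of cluster 10. Median depth was similar, at 29849.5 and 33242.5 UMIs per cell.

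Gene by gene, Hoxd11 stood at a pooled 59.8 CPM in cluster 0 and 0.47 CPM in cluster 10. Per library it was 78.4, 58.2 and 44.9 CPM in cluster 0 (control replicate 1 and DUX-pulsed replicates 1 and 2, the libraries with at least 20 cells) and at most 3.65 CPM in cluster 10. Hoxc10 stood at a pooled 78.3 and 11.9 CPM, but the libraries differed. In cluster 0 it was at 41.6 CPM in control replicate 1 and at 44.0 and 131 CPM in the DUX-pulsed libraries, and in cluster 10 at 53.3 and 36.5 CPM in the controls and 5.08 and 3.09 CPM in the DUX-pulsed libraries. The order of the clusters was thus turned in control replicate 1, and Hoxc9 was level there, at 45.3 CPM in cluster 0 and 42.1 CPM in cluster 10. Hoxb2 was lower in cluster 0 in each library compared, at a pooled 1.74 against 50.4 CPM, and Hoxc8 stood at a pooled 62.4 and 111 CPM. Hoxa9 had no UMI in cluster 10. Within cluster 10, the detection of Hoxb2 was compared between cells with and without Hoxc8, with no test: 26.5% of the 132 cells with a Hoxc8 UMI also had Hoxb2, and 65.3% of the 176 cells without Hoxc8 had it. The gap had the same sign in each library, with 32.4% and 72.9% in DUX-pulsed replicate 1, 22.4% and 57.1% in DUX-pulsed replicate 2, 23.8% and 47.4% in control replicate 1, and 40% and 75.0% in control replicate 2. Median depth was 35410 UMIs in the cells with Hoxc8 and 32110 in those without. Hoxc6, the neighbour of Hoxc8, was found in 72.0% of the cells with Hoxc8 and 12.5% of those without. Hox genes took part in defining cluster 10. A clustering without Hox genes gave 306 mesenchyme-like cells with Upk3b or Upk1b and without Pitx1 or Tbx4. Their shares with Hoxb2 were 40.7% of 54 cells with Hoxc8 and 60.7% of 252 without. Only 2 cells of each control held Hoxc8.

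**Figure D4:**
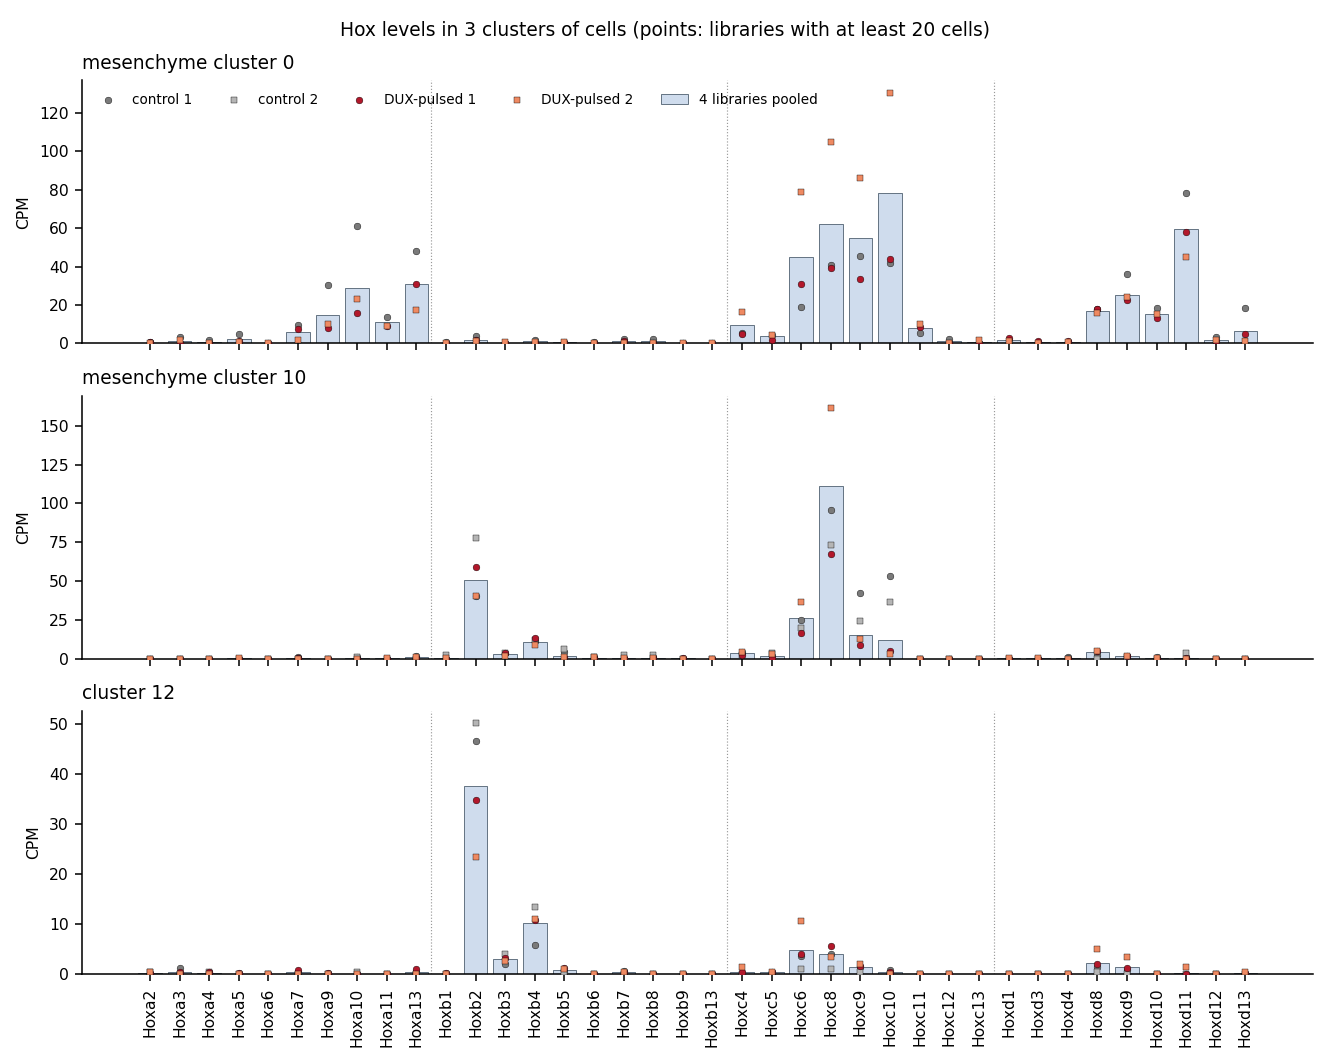
CPM of Hox genes in mesenchyme clusters 0 and 10 and in cluster 12, in cluster and paralog order. Bars are the 4 libraries pooled and points the libraries with at least 20 cells. Cluster 0 is high at posterior paralogs and near 0 at Hoxb2, while cluster 10 is high at Hoxb2 and Hoxc8.

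When cells were clustered again without the Hox genes, 96.1% of cluster 0 and 98.6% of cluster 12 joined a single cluster, and cluster 10 split, with 69.8% of its cells in another cluster and 30.2% in that shared one. The comparison of clusters 0 and 10 was therefore repeated on cells chosen from that clustering's mesenchyme-like class by limb or mesothelial genes alone, a choice made after the values were seen. In 302 cells with Pitx1 or Tbx4 and without Upk3b or Upk1b, Hoxd11 stood at 35.7 CPM, Hoxc8 at 72.1 CPM and Hoxb2 at 6.5 CPM. In 306 cells with Upk3b or Upk1b and without Pitx1 or Tbx4, Hoxb2 stood at 63.4 CPM, Hoxc8 at 51.3 CPM and Hoxa9 had no UMI. The order of Hoxb2 was as between clusters 10 and 0, and the pooled order of Hoxc8 was turned. That turn was not seen in DUX-pulsed replicate 2, where Hoxc8 stood at 105 CPM in the limb-gene and 124 CPM in the mesothelial-gene cells. In the limb-gene cells it was at 66.3 and 62.0 CPM in the controls and at 47.8 CPM in DUX-pulsed replicate 1. Hoxb2 was at a similar level in these mesothelial-gene cells of every library, 65.5 and 78.2 CPM in the controls and 68.0 and 50.6 CPM in the DUX-pulsed libraries. Hoxc8 was not: it stood at 2.3 and 1.3 CPM in the controls and at 25.3 and 124 CPM in the DUX-pulsed libraries. A further 98 cells with UMIs of both pairs of genes were in neither group. Pooled, they stood at 120 CPM for Hoxc8, 13.0 CPM for Hoxb2 and 25.1 CPM for Hoxd11, with 13 Hoxa9 UMIs. No test was made on any of these cells.

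Within the mesenchyme-like class, the comparison of DUX-pulsed with control cells went differently from that of whole cultures. UMIs were summed per library over the 218 and 216 DUX-pulsed and the 87 and 45 control cells. Of 19 members with enough counts, 0 rose and 2 fell, where 2.66% of the 11190 genes tested were called higher and 1.6% lower. Those called were Hoxa9 and Hoxa10. DESeq2 also called 0 higher and these 2 lower, and at an unadjusted p under 0.05 there were 6 lower and 0 higher. Shares over all genes are not given for the DESeq2 and unadjusted counts. Hoxa9 (chr6:52223100-52231089) stood at 17.3 and 11.1 CPM in the controls and 3.84 and 4.03 CPM in the DUX-pulsed cells (log2 fold change -1.89, SE 0.36, adjusted p = 0.0218). Hoxa10 (chr6:52231197-52240854) stood at 35.0 and 13.9 against 7.38 and 9.08 CPM (-1.64, SE 0.39, adjusted p = 0.0485). Both DUX-pulsed libraries lay below both controls for each. The HoxA and HoxD genes from 9 upward all had a log2 fold change under 0 (8 of 8, median -1.12). Among them, Hoxd11 stood at 44.8 and 33.9 against 27.3 and 17.6 CPM (-0.83, SE 0.28, adjusted p = 0.129). Hoxa13 stood at 28.1 and 16.6 against 14.5 and 7.63 CPM (-1.06, adjusted p = 0.144), and Hoxa11 had -1.18 (adjusted p = 0.128). For Hoxd9, Hoxd10 and Hoxd13 the groups overlapped, and control replicate 1 was the highest library. Hoxd9 stood at 21.2 and 5.54 against 11.4 and 10.5 CPM, and Hoxd10 at 10.8 and 5.54 against 6.05 and 6.34 CPM. Hoxd13 stood at 10.4 and 1.39 against 2.21 and 0.432 CPM. For 6 of the 19 members both DUX-pulsed libraries lay below both controls, against 24.8% of all genes tested.

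HoxB and HoxC genes of the same cells varied in sign, and their difference from the posterior HoxA and HoxD genes was not tested. Hoxb2 stood at 18.4 and 44.3 CPM in the control and 36.7 and 26.6 CPM in the DUX-pulsed mesenchyme-like cells (log2 fold change 0.09, adjusted p = 0.919). Hoxc8 stood at 61.8 and 58.9 against 59.4 and 146 CPM (0.77, SE 0.37, adjusted p = 0.284), and Hoxc6 at 20.8 and 24.9 against 24.5 and 54.7 CPM (0.81, SE 0.37, adjusted p = 0.264). For Hoxc8 and Hoxc6, DUX-pulsed replicate 2 stood apart from the other 3 libraries. Posterior Hoxc10 stood at 45.1 and 67.2 against 23.6 and 53.2 CPM (-0.52), and Hoxc9 had -0.27. The 6 tested HoxC members had a median of 0.31. Cluster 0, where posterior genes were high, made up 47 of the 87 and 19 of the 45 mesenchyme-like cells in the controls and 99 of 218 and 93 of 216 in the DUX-pulsed libraries. Whether this balance bears on the 2 calls was not tested. Neither gene was called without DUX-pulsed replicate 1, DUX-pulsed replicate 2 or control replicate 1 (Hoxa9 adjusted p = 0.0885, 0.0799 and 0.151), nor in the clustering without Hox genes (Hoxa9 -1.23, adjusted p = 0.113), and 5 members fell without control replicate 2.

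**Figure D5:**
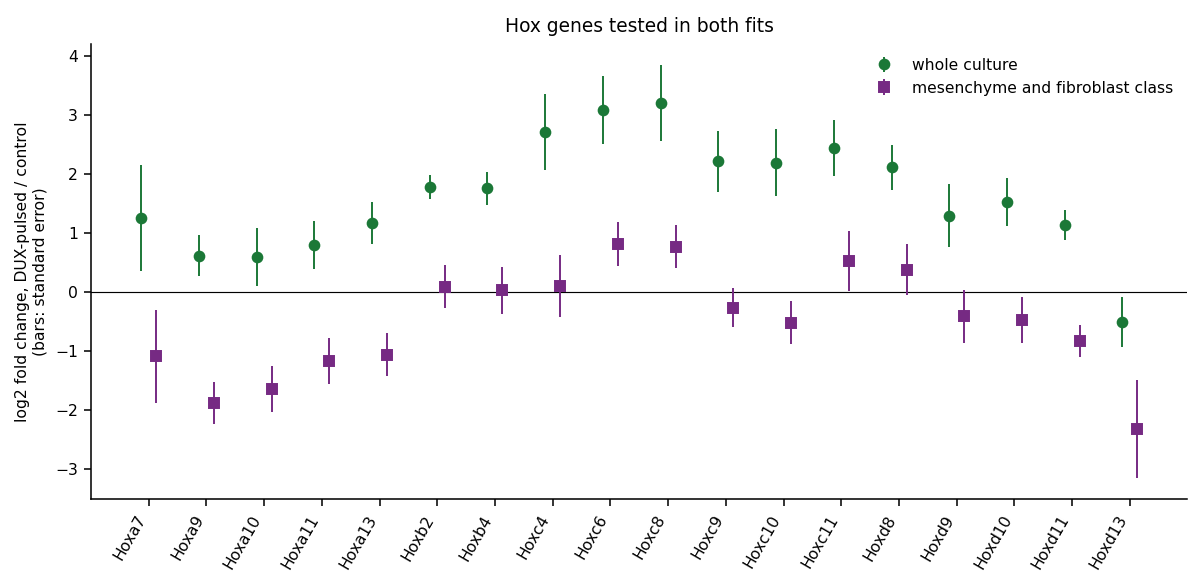
Log2 fold change, DUX-pulsed against control, of Hox genes tested both in whole cultures and within mesenchyme-like cells, with bars for the SE. In whole cultures every gene drawn but Hoxd13 lies above 0, and the posterior HoxA and HoxD genes lie below 0 within mesenchyme-like cells.

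In the other classes, few members had counts enough and edgeR called 0 of them in either direction, as did DESeq2. Shares over all genes are given for the adjusted p of edgeR only. Cluster 12 had 5 tested members (5.49% of all genes called there), with 2 at an unadjusted p under 0.05. Hoxb2 stood there at 45.9 and 45.9 CPM in the controls and 37.4 and 24.5 CPM in the DUX-pulsed libraries (log2 fold change -0.54, SE 0.24, adjusted p = 0.252). The other, Hoxc6, had 1.64 (adjusted p = 0.221). In cardiomyocyte-like cells 2 members were tested (17.9% of all genes called), with 1 at an unadjusted p under 0.05. Most cardiomyocyte-like cells of the controls were in cluster 20, and most of those of the DUX-pulsed libraries in clusters 1 and 2. In foregut-like cells 9 members were tested (5.03% of all genes called), with 2 at an unadjusted p under 0.05: Hoxb2 (2.11, adjusted p = 0.137) and Hoxd11 (-2.99, adjusted p = 0.110). Hoxd11 there rested on control replicate 2, at 48.1 CPM against 4.06, 4.65 and 0 CPM in control replicate 1 and DUX-pulsed replicates 1 and 2. The foregut-like tests rest on few cells, since 28 cells with 5 or more Hox genes held 88.3% of that class's Hox UMIs. Of these, 7 and 6 were in control and 11 and 4 in DUX-pulsed replicates 1 and 2, and they were low in Foxe1 and Sox2 beside the others.

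The difference of the DUX effect between mesenchyme-like and cardiomyocyte-like cells was tested as an interaction in edgeR. Of 19 members tested, 0 were called in either direction and 0 had an unadjusted p under 0.05, where 7.4% of 12411 genes were called. It was 0.66 for Hoxb2 (SE 0.47, adjusted p = 0.442) and -1.52 for Hoxc6 (SE 0.89, adjusted p = 0.341), mesenchyme-like minus cardiomyocyte-like on the log2 scale. Hoxa9, Hoxa11, Hoxc4, Hoxc10, Hoxd10, Hoxd11 and Hoxd13 had no UMI in cardiomyocyte-like cells, so their interaction is not given. They passed the count filter through mesenchyme-like cells and could not have been called, and most others had few UMIs in cardiomyocyte-like cells. The count of 0 called can therefore not be set against the 7.4% of all genes.

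Genes that partner or regulate Hox genes were read from the whole-culture fit, in which 15.6% of all genes rose and 11.1% fell. Among the cofactors that bind DNA with Hox proteins, 5 of 9 rose and 2 fell (median log2 fold change 0.72). Meis2 stood at 41.7 and 39.1 CPM in the controls and 97.6 and 124 CPM in the DUX-pulsed libraries (1.46, SE 0.17, adjusted p = 0.00390), and Pbx3 at 17.7 and 18.0 against 33.1 and 41.1 CPM (1.05, adjusted p = 0.00743). Meis1 and Pknox2 also rose, and Meis3 and Pbx4 fell. Of the CDX genes and other known inputs to the clusters, 3 of 13 rose and 3 fell. Cdx2, an activator of central and posterior Hox genes, stood at 72.9 and 78.1 against 25.5 and 29.1 CPM (-1.47, SE 0.15, adjusted p = 0.00278).

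In the retinoic acid list, 6 of 18 rose and 1 fell (median 0.78). The receptor gene Rxra went from 4.18 and 4.24 to 9.00 and 10.6 CPM (1.22, adjusted p = 0.00872), and the retinol carrier Rbp4, also a marker of visceral endoderm, fell from 7712 and 8460 to 3687 and 3557 CPM (-1.16, adjusted p = 0.00602). Of the Polycomb genes, 2 of 23 rose and 1 fell (median -0.16): Jarid2, a PRC2 subunit, went from 33.2 and 33.5 to 87.3 and 113 CPM (1.58, adjusted p = 0.00339), and Ezh1, a PRC2 methyltransferase, from 26.6 and 30 to 15.9 and 16.0 CPM (-0.83, adjusted p = 0.0106). Of 12 Trithorax genes 0 were called, with Men1 nearest (-0.46, adjusted p = 0.0598). Among the non-coding transcripts of the Hox clusters, 3 of 4 rose and 1 fell. Hoxb3os went from 1.14 and 0.802 to 2.51 and 2.28 CPM (1.30, adjusted p = 0.0271), while Hoxaas3 went from 1.45 and 1.15 to 0.447 and 0.220 CPM (-1.91, adjusted p = 0.0227). Hotairm1 and Hoxd3os1 rose. Transcripts of opposite strands at a Hox cluster cannot be told apart if the counting ignored strand.

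Genes flanking the clusters were read from the same fit. Within 1 Mb on either side, the median log2 fold change was -0.21 over 11 tested genes at HoxA, 0.09 over 40 at HoxB, 0.03 over 40 at HoxC and 0.31 over 7 at HoxD. At HoxC, 10 of the 40 rose and 5 fell (15.6% and 11.1% of all genes tested did), and at HoxB 5 rose and 4 fell. At HoxA 0 rose and 3 fell, and at HoxD 1 rose and 0 fell. Beside these stand the Hox medians of 0.63, 1.78, 2.33 and 1.38 given above, and no test of the difference was made.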

How the data were processed

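Counts of UMIs per gene and cell for 4 libraries were used as the authors deposited them, whole numbers without normalization. Cell Ranger 2.2.0, STAR and mm10 are named per the submitters' processing notes, and the kit chemistry is not given in the sources used here. Counts were summed per library, or per library and class, and tested with edgeR 4.0.16 (TMM, quasi-likelihood, two-sided, Benjamini-Hochberg over all genes) in R 4.3.3. Genes needed at least 10 counts in 2 libraries and 40 in all. Cells were clustered with scanpy 1.11.5 (30 principal components, 15 neighbours, Leiden resolution 1), and a cluster was named after a marker list with at least 4 members in its top 30 genes. Scrublet called 37 doublets (0.417%), too few to have worked, so doublets were kept. DESeq2 1.42.0, other filters, left-out libraries and clustering without Hox genes were alternatives. The fit was tested on simulated data. Members, lists and motifs were chosen with earlier results of these data known. Hox genes named in whole cultures were those called and, in each cluster, those with the highest level or largest log2 fold change. Other genes given with values were chosen after these were seen. Some genes are not reported here by name, though they stay in the counts and sums.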

Additional observations from a re-analysis of the deposited data

How the results depend on the processing

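In whole cultures 13 Hox genes rose. That number was 4 with a stricter choice of cells (1000 genes or more, 5% mitochondrial counts or less), 8 with at least 50 counts, 5 after thinning to equal depth, 5 to 15 with a library left out, 8 without mesenchyme-like cells and 6 without cluster 12 as well. Fewer genes were tested in most of these, and the share of all genes called is given for the main fit only. No member fell under any of them. Single genes changed sign 4 times: Hoxa7 without DUX-pulsed replicate 1 (-0.95, where left-out libraries gave -0.95 to 2.11), Hoxa10 without mesenchyme-like cells (-0.0061), and Hoxd11 without them (-1.21) and without cluster 12 as well (-1.46). The cause was not tested.

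Of the partners and regulators, 19 rose and 8 fell. Shares of all genes called under the alternatives that follow are not given here. DESeq2 called 13 lower, the stricter cells gave 5 higher and 2 lower, and left-out libraries gave 9 to 22 higher and 3 to 11 lower. Within mesenchyme-like cells, where 2 members fell, 1 fell with cells of at least 5000 UMIs, 0 without a count filter and 0 in the clustering without Hox genes, and left-out libraries gave 0 to 1 higher and 0 to 5 lower. In cluster 12, 1 was higher without a count filter and 0 to 1 with a library left out. In foregut-like cells, 1 was lower in the clustering without Hox genes, 1 was higher and 4 lower without a count filter, and left-out libraries gave 0 to 1 in each direction.

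The summed mesenchyme-like level of 379 CPM was 228.0 CPM in the clustering without Hox genes and 228.2 CPM at Leiden resolution 0.5, where cluster 12 joins it, so cluster 12 has no value of its own there. Cluster 12's level as a mean over cells was 67.3 CPM. The shares of cells with a Hox UMI were 17.1% and 32.7% without thinning and 9.36% and 24.5% at 10000 UMIs. With 6 classes at their control shares, log2 ratios of the sums were 0.54 for all members, 0.10 for HoxA, 1.23 for HoxB, 0.39 for HoxC, 0.093 for HoxD, 0.64 for anterior, 1.21 for central and -0.069 for posterior genes. With endothelium-like and parietal endoderm-like cells weighted as well they were -0.44, -1.10, -0.19, -0.068, -0.86, -0.29, 0.069 and -0.92 in the same order. The log2 ratios of central and posterior genes kept their sign, and all the others changed sign. With the stricter cells, HoxB was at 0.90 and anterior genes at 0.89. The HoxC neighbours' median was -0.012 within 3 Mb.

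Replicate numbers are shared between groups only as numbers: the deviations of same-numbered libraries correlated at 0.35 over genes, with 2 pairs. With the replicate block 17 members rose in whole cultures, 21 partners or regulators fell, and within classes the block gave 2 higher and 7 lower in mesenchyme-like cells, 1 lower in cardiomyocyte-like cells, 1 lower in cluster 12, and 1 higher and 1 lower in foregut-like cells. Shares of all genes called with the block are not given here, so these counts cannot be set against them. For the interaction, DESeq2, the block and left-out libraries were not run. Hox counts per gene were low, which limits all tests within classes.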

Other observations

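In the foregut-like class, 28 of 197 cells held 5 or more Hox genes. Over those 28 cells Cdx2 stood at 123 CPM and T, a gene of the tail bud and streak, at 41.9 CPM, against 15.4 and 0.184 CPM over the other 169. The foregut genes Foxe1 and Sox2 stood at 9.72 and 35.9 CPM in them, against 116 and 145 CPM in the others. These cells were chosen by their Hox genes, so the values are a description.

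Cells with 5 or more Hox genes numbered 195 in the mesenchyme-like class, 23 in the endothelium-like class, 23 in the parietal endoderm-like class and 0 in the cardiomyocyte-like class. Of those 23 parietal endoderm-like cells, 18 came from DUX-pulsed replicate 1, which gave 243 of the 317 cells of that class.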
